A study of Mus musculus with 4 samples.

Results

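The 10 genes described here belong to the Hedgehog and PTHrP signals that pace chondrocyte maturation, together with markers of hypertrophic chondrocytes. They were listed by name for their known roles in these pathways, and all 10 were found among the 50686 genes of the hip libraries and the 54838 genes of the knee libraries. All 10 also passed the minimum of 10 counts over a pair of libraries in both joints. In growth plate cartilage, Indian hedgehog (Ihh) is secreted by prehypertrophic chondrocytes and lifts the block that the receptor Ptch1 places on Smo, which lets Gli factors switch on targets such as Gli1, Ptch1 and Hhip. Ihh also maintains parathyroid hormone-related protein (PTHrP, gene Pthlh), which acts through its receptor Pth1r to hold chondrocytes back from hypertrophy. Cells that leave this loop enlarge and express Col10a1, and in mature articular cartilage such hypertrophy is a known feature of osteoarthritis.

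RNA labelled as hip or knee articular cartilage of mice was sequenced as poly-A libraries, with 4 libraries in all and 1 per group. The hip control came from Cbfβf/f mice, labelled as having had no treatment, and was set against tamoxifen (TMX)-injected Cbfβf/f;Col2α1-CreERT mice. The knee control came from oil-injected Cbfβf/f;Aggrecan-CreERT mice and was set against TMX-injected mice of that genotype. All 4 libraries thus came from mice with floxed Cbfb, and the Cre is driven by the promoter of Col2a1 or of aggrecan, both of which are active in chondrocytes. The hip control carried no Cre and its label gives no treatment, whereas the methods have Cbfβf/f mice receiving TMX or corn oil and the text calls the control WT, so whether it was injected is unclear. In this pair the effect of Cbfb cannot be told apart from those of Cre and TMX. The mice were males, with an age of 6 weeks stated for the hip in some places and 2 months in another, and of 12 weeks for the knee. TMX was given at 2 weeks of age in the Col2α1-CreERT line, and at 6 or 8 weeks in the Aggrecan-CreERT line, the stated ages differing. The study gives a number of mice per group for its experiments in general, but the sources used here do not state how many went into a library. Between the pairs, the joint, the Cre line, the age, the type of control and the program used for counting all differed together and cannot be told apart. The tissue differed too, since the study describes the hip samples as cartilage alone and those of the knee as cartilage with bone, while the RNA extraction note in the labels names osteoblasts.

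Counts on genes ranged from 34264456 to 38473120 per library. The library of the TMX-injected mice with Cre is called Cbfb-deficient here. A ratio in what follows is the count in that library over that in its control, on the log2 scale. It was taken after TMM normalization within the pair and with 0.5 added to each count. With 1 library per group there is no replicate error and no test within a pair, and the intervals printed (95%, Clopper-Pearson) hold the error of counting alone. A gene is called higher or lower where the pair holds 10 or more counts of it, the ratio is 2-fold or more (1 on the log2 scale) and the interval excludes 0. This is a rule of size for these 2 libraries and holds no difference between animals. Cbfb, the targeted gene, was not called in either pair, with 2548 counts in the hip control and 2946 in its partner (log2 ratio 0.41), and 3796 and 4572 in the knee pair (-0.07). Counts per gene do not show whether a floxed exon was lost.

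The hip libraries held little of what marks cartilage. Over a list of 17 chondrocyte genes, the summed level (CPM, counts scaled to a fixed library total) was 260 CPM in the hip control and 106 CPM in the hip Cbfb-deficient library, against 6419 and 3151 CPM in the knee. Col2a1, the main cartilage collagen, was counted 354 times in the hip control and 228 times in its partner, against 87367 and 33204 times in the knee. None of the 17 genes was at 0 in any library, but Matn1 and Epyc had 1 to 3 counts in the hip. In the hip the larger part of the list's sum came from Comp (4715 and 1286 counts) and Chad (2566 and 639 counts), which tendon also expresses. Skeletal muscle genes (12 in the list) made up 14.2% of all counts in the hip control and 15.2% in its partner, and 1.07% and 2.27% in the knee libraries. In bulk RNA of this kind, fewer cells of a type and less RNA per cell cannot be told apart, which holds for every ratio given here. The plot of marker levels by library shows how far the joints differed in makeup.

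**Figure D1:**
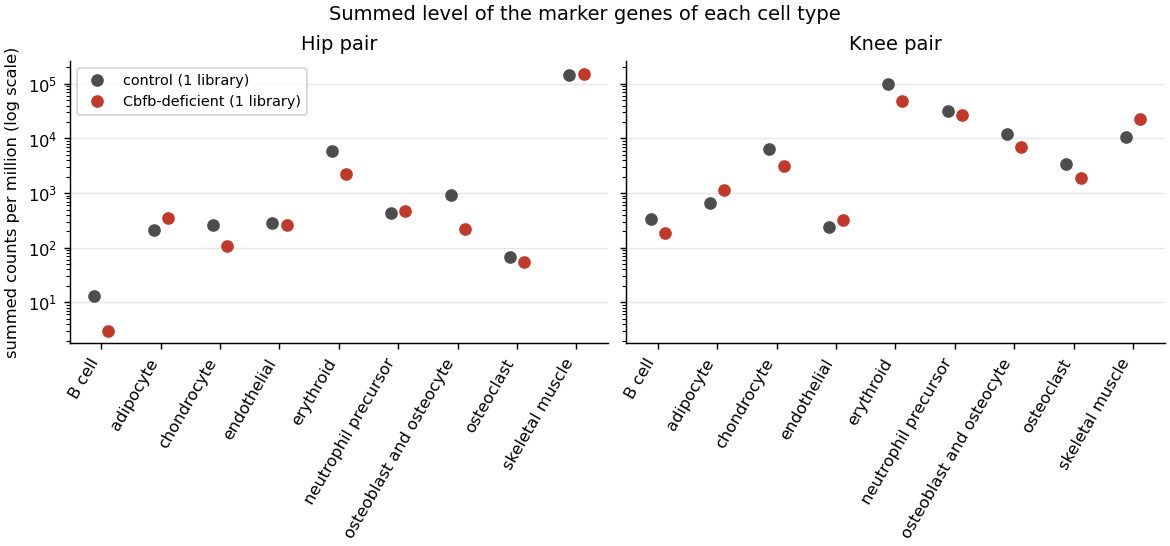
Summed level of the marker genes of 9 cell types in CPM (log scale), with the hip pair on the left and the knee pair on the right; each point is 1 library, grey for the control and red for the Cbfb-deficient library. Chondrocyte genes summed to 260 and 106 CPM (hip) and to 6419 and 3151 CPM (knee), while skeletal muscle genes led in the hip.

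The promoters of Ihh, Col10a1 and Pth1r are shown because these genes were lower together in the knee and because Cbfb acts on DNA through its Runx partners, which bind a short core motif. The windows run from 250 bases before to 50 bases after the start site as RefSeq places it on GRCm38.p6, and each is written 5′ to 3′ on the strand of its gene. Capitals mark a match to the RUNX core TGTGGT or TGCGGT on either strand. The Ihh window is chr1:74951623-74951922 on the minus strand, the Col10a1 window chr10:34389731-34390030 on the plus strand, and the Pth1r window chr9:110747096-110747395 on the minus strand, the farthest upstream of 3 start sites listed for Pth1r.
Ihh promoter: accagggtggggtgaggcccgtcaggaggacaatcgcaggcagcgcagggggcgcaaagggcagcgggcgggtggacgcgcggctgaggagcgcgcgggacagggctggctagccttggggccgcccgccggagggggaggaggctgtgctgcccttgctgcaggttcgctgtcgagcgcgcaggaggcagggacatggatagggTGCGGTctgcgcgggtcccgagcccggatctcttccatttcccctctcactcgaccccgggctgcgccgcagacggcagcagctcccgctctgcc
Col10a1 promoter: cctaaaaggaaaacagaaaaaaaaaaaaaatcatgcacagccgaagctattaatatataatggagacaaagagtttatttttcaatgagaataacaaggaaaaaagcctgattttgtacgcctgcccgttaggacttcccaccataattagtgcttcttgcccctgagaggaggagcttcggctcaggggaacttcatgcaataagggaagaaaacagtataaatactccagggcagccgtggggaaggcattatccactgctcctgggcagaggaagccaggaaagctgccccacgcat
Pth1r promoter: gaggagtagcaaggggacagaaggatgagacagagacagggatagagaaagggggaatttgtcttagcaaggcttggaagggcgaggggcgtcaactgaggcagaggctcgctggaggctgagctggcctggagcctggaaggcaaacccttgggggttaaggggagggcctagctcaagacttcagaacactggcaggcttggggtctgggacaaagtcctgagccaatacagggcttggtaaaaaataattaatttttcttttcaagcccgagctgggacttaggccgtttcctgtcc

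The table of promoters held 12 windows for 8 of the 10 genes, and none for Gli1 and Panx3. A RUNX core was found in 1 of the 12 windows, that of Ihh, where TGCGGT begins 45 bases before the start site (position -45). Over all 32851 windows of the same length in the table, 22.4% held at least 1 such core. The GLI motif GACCACCCA, searched on both strands, was in none of the 12 windows and in 0.253% of all windows. These are matches of letters in a short window, and sites farther away were not searched.

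Of the 10 genes, 4 were called lower in the knee (Ihh, Pth1r, Col10a1 and Panx3) and 1 was called higher (Gli1). Among all 21131 genes of the knee pair, 6.81% were called lower and 9.00% higher. In the hip 3 were called lower (Smo, Pth1r and Col10a1) and 1 higher (Mef2c), where 16.3% of all 19856 genes were called lower and 20.2% higher. Col10a1 and Pth1r were called lower in both pairs, as were 1.38% of the 17594 genes with enough counts in both. The knee call of Pth1r was lost with library size and with DESeq2 size factors. In a fit over all 4 libraries with joint as the block, neither gene passed. Adjusted p values for Col10a1 and Pth1r were 0.68 and 0.80 in edgeR and 0.093 and 0.27 in DESeq2. The fit has 1 residual degree of freedom and edgeR passed 0 of the 17594 genes, so its result does not set these genes apart. The median log2 ratio of the 10 genes was -0.21 in the hip and 0.11 in the knee, against 0.01 and 0.02 over all genes.

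**Figure D2:**
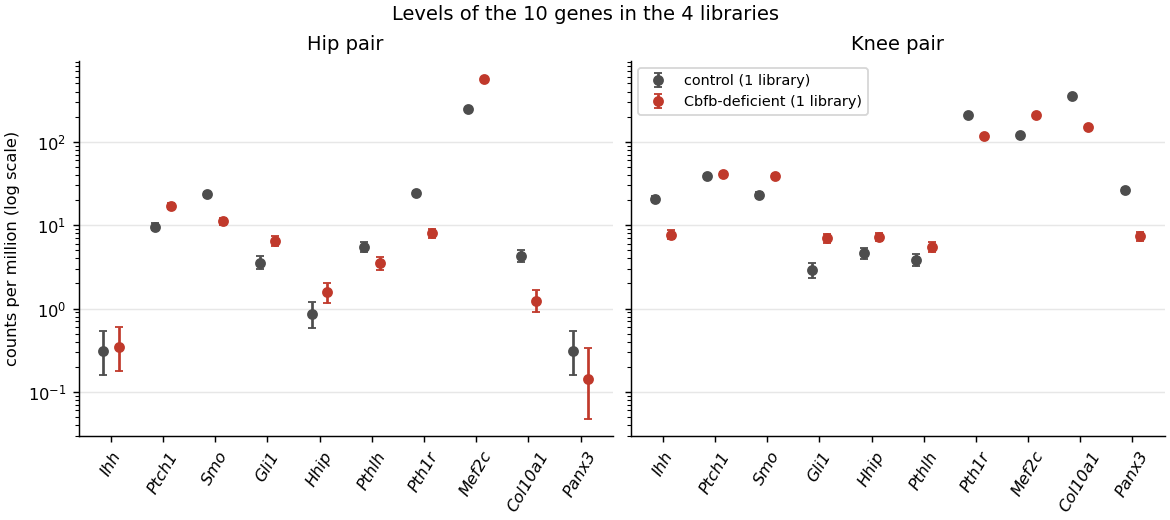
Level of each of the 10 genes in CPM (log scale) in the hip pair (left) and the knee pair (right); each point is 1 library, grey for the control and red for the Cbfb-deficient library, and bars are 95% Clopper-Pearson intervals of the count. In the hip control Ihh, Panx3 and Hhip were the lowest, at 0.858 CPM or less, and Ihh, Col10a1 and Panx3 were between 7.32 and 356 CPM in the knee.

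Ihh, the ligand (ENSMUSG00000006538, chr1:74984474-74990837 of GRCm39, minus strand), had 702 counts (20.5 CPM) in the knee control and 295 counts (7.72 CPM) in the knee Cbfb-deficient library. That is 3.01-fold lower, a log2 ratio of -1.59 (-1.79 to -1.39), and 3.98% of the genes of the knee pair had a lower ratio. The hip libraries had 12 counts each, a log2 ratio of 0.20 with an interval of -1.09 to 1.48. These counts are too few to show a difference of Ihh in the hip. The sister ligand Shh had 2 counts in the hip control and none elsewhere, below the floor of 3 counts per library (0.0780 to 0.0876 CPM), and Dhh had 12 to 51 counts.

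Of the Hedgehog receptors and response genes (Ptch1, Smo, Gli1 and Hhip), none was called lower in the knee, where the share over all genes was 6.81%, so that 0 of 4 sets them apart in no way. Ptch1, the Hedgehog receptor that is also a target (chromosome 13), had 1342 counts (39.2 CPM) in the knee control and 1568 counts (41.0 CPM) in the Cbfb-deficient library, a log2 ratio of -0.12 (-0.22 to -0.01). Scaled by library size that interval held 0. In the hip Ptch1 was higher, with 370 and 583 counts and a log2 ratio of 0.85 (0.66 to 1.05), short of the call, and of 0.24 after correction for transcript length and GC content.

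Smo, the membrane protein that Ptch1 holds in check (chr6:29735407-29762532, plus strand), had 788 counts (23.0 CPM) in the knee control and 1490 counts (39.0 CPM) in the Cbfb-deficient library, a log2 ratio of 0.58 (0.45 to 0.71). The hip went the other way, from 900 counts (23.4 CPM) to 386 counts (11.2 CPM). Smo was called lower there, with a log2 ratio of -1.02 (-1.20 to -0.85) that lies close to the limit of 1. After a correction for transcript length and GC content it was -0.72 and no longer called. The controls of the 2 joints stood at nearly the same level of Smo, 23.4 and 23.0 CPM.

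Gli1, the transcription factor whose own expression is a common readout of Hedgehog activity (ENSMUSG00000025407, chr10:127165751-127177865, minus strand), had 98 counts (2.86 CPM) in the knee control and 266 counts (6.96 CPM) in the knee Cbfb-deficient library. It was called higher, 2.14-fold, with a log2 ratio of 1.10 (0.76 to 1.45), and was 0.98 and just short of the call after the correction for length and GC content. In the hip it had 137 and 224 counts, a log2 ratio of 0.90 (0.59 to 1.22), short of the call, and after that correction was called at 1.30. Gli1 was thus higher in the Cbfb-deficient library of each pair, by a factor of 1.87 in the hip. Its exons share 5.28% of their bases with those of Gm47200 and 2.05% with those of Arhgap9, both on the other strand.

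Hhip, a membrane protein that binds Hedgehog ligands and damps the signal, had 157 counts (4.58 CPM) and 275 counts (7.19 CPM) in the knee, a log2 ratio of 0.47 (0.18 to 0.76). In the hip 33 and 54 reads were counted, for a ratio of 0.90 on the log2 scale (0.26 to 1.58). Corrected for length and GC content, the hip value was -0.48, with an interval that held 0. Hhip has one of the longest transcripts of the 10, 9.10 kb, and the lowest GC content, 41.2%. The correction took out length and GC content together, and the part of each was not tested. Over all genes log2 ratios varied with length. Their median in the hip was 0.54 for the 20% of genes with the longest transcripts and -0.33 for the 20% with the shortest. In the knee these medians were 0.21 and -0.34.

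Set against each other within a library, the genes of the pathway gave the following ratios. Per 100 reads of Ihh there were 14.0 reads of Gli1 in the knee control and 90.2 in the knee Cbfb-deficient library, a change of 2.69 on the log2 scale. Per 100 reads of Smo there were 12.4 and 17.9 reads of Gli1 in the knee, and 15.2 and 58.0 in the hip. Ptch1, another target, went the other way in the knee, with 170 and 105 reads per 100 of Smo (log2 change -0.69), and had 41.1 and 151 in the hip (1.88). Hhip, also a target, had 11.7 and 17.5 reads per 100 of Ptch1 in the knee, and 8.92 and 9.26 in the hip. These are ratios of reads, not of levels per length, and do not depend on the scaling between libraries.

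Pthlh, which encodes PTHrP (chr6:147153599-147165681, minus strand), had 132 counts (3.85 CPM) in the knee control and 212 counts (5.55 CPM) in the Cbfb-deficient library, a log2 ratio of 0.34 with an interval from 0.02 to 0.67. The hip counts were 212 (5.51 CPM) and 120 (3.47 CPM), a log2 ratio of -0.62 (-0.96 to -0.29). Neither was called. Without the length and GC trend the hip value was -0.09, within counting error, and the knee value was 0.50.

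Pth1r, the receptor for PTHrP and parathyroid hormone (ENSMUSG00000032492, chr9:110550767-110576259, minus strand), was among the most abundant of the 10 in the knee, with 7117 counts (208 CPM) in the control and 4469 counts (117 CPM) in the Cbfb-deficient library. It was called lower, with a log2 ratio of -1.01 (-1.07 to -0.96), at the edge of the rule. With DESeq2 size factors it was -0.998 and with library size -0.83, and it was called in neither. The hip had 934 counts (24.3 CPM) and 277 counts (8.01 CPM), called lower at -1.55 (-1.75 to -1.36). Its exons share 1.99% of their bases with Myl3, a myosin light chain gene of slow muscle on the other strand. Myl3 was at 31399 and 3202 counts in the hip pair, and at 421 and 621 in the knee pair. The library kit and counting are not stated to keep strand. The counting program of the hip files set aside 7.40% and 5.96% of their reads as ambiguous between genes. Whether reads over these bases were among them is not known. The part of Myl3 in the hip ratio of Pth1r was not tested.

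Col10a1 (ENSMUSG00000039462, chr10:34265971-34273081, plus strand) is the collagen of hypertrophic cartilage and was the most abundant of the 10 genes in the knee control. It had 12199 counts (356 CPM) in the knee control and 5770 counts (151 CPM) in the knee Cbfb-deficient library, 2.67-fold lower, with a log2 ratio of -1.42 (-1.47 to -1.37). The hip libraries held 164 counts (4.26 CPM) and 43 counts (1.24 CPM), 3.30-fold lower, with a log2 ratio of -1.72 (-2.25 to -1.24). Between the controls the knee level was 83.5 times that of the hip for Col10a1, 83.9 times for Panx3 and 65.7 times for Ihh, across libraries that were counted differently. Col10a1 lies within Nt5dc1 on the other strand and shares 20.8% of its exon bases with it. Nt5dc1 was at 98 and 269 counts in the hip pair and 359 and 589 in the knee pair, with log2 ratios of 1.65 and 0.37, opposite in sign to those of Col10a1. Here too strand is not stated to be kept, and the part of Nt5dc1 in the counts of Col10a1 was not tested.

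Relative to Col2a1, Col10a1 was slightly higher in the knee Cbfb-deficient library and lower in that of the hip. Per 100 reads of Col2a1 there were 14.0 reads of Col10a1 in the knee control and 17.4 in the knee Cbfb-deficient library (log2 change 0.32), against 46.3 and 18.9 in the hip pair (-1.30), where Col2a1 itself had few counts. In the knee, Ihh was at 0.804 and 0.888 reads and Panx3 at 1.03 and 0.843 reads per 100 of Col2a1. The chondrocyte list as a whole had 13 of 17 genes called lower and none called higher in the knee (6.81% and 9.00% of all genes), with a median log2 ratio of -1.71. Its members spread widely, from Matn3 at -5.77 and Col9a1 at -4.04 to Chad at 0.69, and Acan was 0.35. Scaled to the summed counts of this list, Col10a1 in the knee was -0.21, Ihh -0.38 and Panx3 -0.81, none of them called, and Pth1r was 0.20. The part of a lower share of chondrocyte RNA in these ratios was not tested beyond these values.

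Panx3, a channel protein induced in prehypertrophic and hypertrophic chondrocytes and in osteoblasts (ENSMUSG00000011118, chr9:37571198-37580531, minus strand), showed the lowest knee ratio of the 10. It had 897 counts (26.2 CPM) in the knee control and 280 counts (7.32 CPM) in the knee Cbfb-deficient library, 4.05-fold lower, with a log2 ratio of -2.02 (-2.22 to -1.82). Of the genes of the knee pair, 2.64% had a lower ratio. In the hip it had 12 and 5 counts and an interval of -2.92 to 0.54, too wide to show a difference. Its relatives Panx1 and Panx2 were not called in either pair, and Panx1, the widely expressed member, had 730 and 779 counts in the knee (log2 ratio -0.25).

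Mef2c, a transcription factor that drives Col10a1 in hypertrophic chondrocytes and also acts in muscle, vessels and B cells (ENSMUSG00000005583, chr13:83652064-83815555, plus strand), was higher in the Cbfb-deficient library of both pairs. It had 9445 counts (245 CPM) and 19739 counts (571 CPM) in the hip, 2.40-fold, and was called there with a log2 ratio of 1.26 (1.23 to 1.30). With the length and GC trend removed that ratio was 0.14 and was not called, a shift that among the 20 ratios was exceeded by that of Hhip in the hip alone. In the knee it had 4103 counts (120 CPM) and 7911 counts (207 CPM), a log2 ratio of 0.61 (0.55 to 0.66), short of the call. The ratios of Mef2c and Col10a1 were thus opposite in sign in both pairs.

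Markers of the other cells that express Mef2c gave these values beside it. Of the 12 skeletal muscle genes, 8 were called higher and none lower in the knee (9.00% and 6.81% of all genes), and the summed level went from 10677 to 22701 CPM. In the hip 3 were called higher and 2 lower, near the 20.2% and 16.3% of all genes, with summed levels of 142283 and 152027 CPM and ratios from -1.97 for Mb up to that of the giant sarcomere gene Ttn, with 67185 and 469639 counts. Endothelial genes (7) had none called in either pair, with sums of 285 and 266 CPM for the hip pair and 241 and 319 CPM for the knee pair. The 5 B cell genes summed to 13.0 and 3.04 CPM for the hip pair and 334 and 187 CPM for the knee pair. No gene of these lists was at 0 in any library, and the part of these cells in the ratio of Mef2c was not tested. Its relative Mef2a was called higher in both pairs (log2 ratio 1.79 in the hip and 1.08 in the knee), while Mef2d was not called in either.

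Osteoblasts and osteocytes, which also express Pth1r and Panx3, were followed with 10 genes. In the knee 4 of them were called lower and 1 higher (6.81% and 9.00% of all genes), and the summed level was 12041 CPM in the control and 7054 CPM in the Cbfb-deficient library. In the hip 5 were called lower and 1 higher (16.3% and 20.2% of all genes), with 916 and 218 CPM. No gene of the list was at 0 in any library. Bglap, a gene of mature osteoblasts, had 27984 and 9156 counts in the knee (log2 ratio -1.95), whereas Ibsp had 35722 and 44074 (-0.04) and was not called. The part of these cells in the ratios of Pth1r and Panx3 was not tested. Erythroid genes, a sign of marrow or blood in the sample, made up 9.97% of the counts in the knee control and 4.92% in the knee Cbfb-deficient library, and 0.588% and 0.222% in the hip pair.

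**Figure D3:**
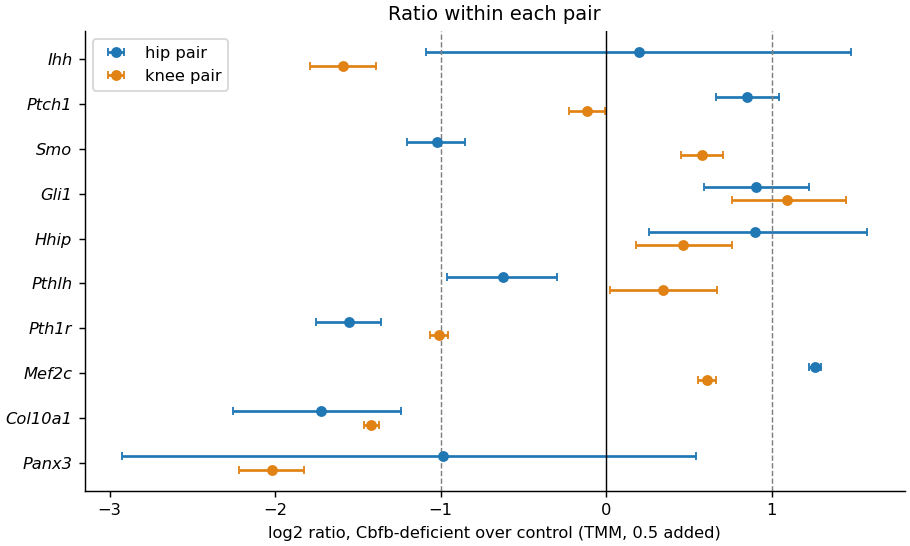
Log2 ratio of each gene, Cbfb-deficient over control, in the hip pair (blue) and the knee pair (orange); bars are 95% counting intervals from 1 library per group, the solid line marks 0 and the dashed lines mark the limit of 1 used for a call. Col10a1 and Pth1r lie at or beyond -1 in both pairs, Ihh and Panx3 have wide hip intervals, and Smo and Pthlh lie on opposite sides of 0.

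The order of the 10 genes was taken per length, as CPM per kilobase of the union of exons. In the knee control Col10a1 led with 114, followed by Pth1r with 43.5, and then by Panx3 (7.62), Mef2c (6.99) and Ihh (6.71), of which each overlapped its neighbour within counting error. By the length of the longest transcript that order changed, with Mef2c at 16.7 above Panx3 at 10.3 and Ihh at 8.28. Ptch1 (2.66), Smo (2.60) and Pthlh (2.13) came next and also overlapped in that order, and Gli1 (0.570) and Hhip (0.427) were last. The knee Cbfb-deficient library kept Col10a1 (48.1) and Pth1r (24.5) at the head, with Mef2c next at 12.1, and Ihh (2.53) and Panx3 (2.13) followed Smo, Pthlh and Ptch1, with Pthlh, Ptch1, Ihh and Panx3 each overlapping the next within counting error. In the hip control Mef2c led with 14.3, followed by Pth1r (5.09) and Pthlh (3.05), while Ihh (0.102), Panx3 (0.0908) and Hhip (0.0800) were last and overlapped one another. Mef2c stood at 33.3 in the hip Cbfb-deficient library, where Pthlh (1.92) and Pth1r (1.68) followed and overlapped within counting error. By the length of the longest transcript Pth1r stood above Pthlh.

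**Figure D4:**
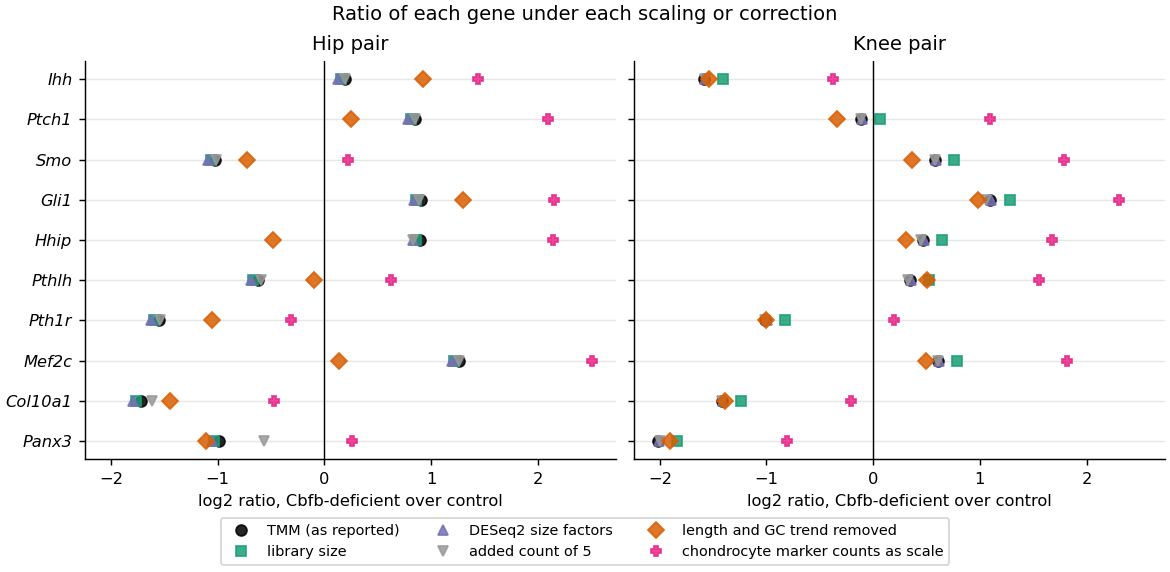
Log2 ratio of each gene in the hip pair (left) and the knee pair (right) as reported (black) and under 5 other settings of the scaling, the added count or the correction for length and GC content. Scaling to the chondrocyte marker counts moved every gene to the right, so that Col10a1 in the knee lay at -0.21, and removal of the trend took Mef2c in the hip from 1.26 to 0.14.

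Other genes of the pathways were followed with 7 lists of 58 genes in all. Ratios of these genes and of the cell type markers are given without the correction for length and GC content. Under that correction the hip calls of Smo and Mef2c were lost. Among Hedgehog receptors and co-receptors in the knee (5 genes), 2 were called higher and none lower (9.00% and 6.81% of all genes), and the median log2 ratio was 0.96 against 0.02 for all genes. The called genes were the co-receptor Boc, with 300 and 828 counts (log2 ratio 1.12, 0.93 to 1.32), and Gpr161, a receptor of the primary cilium that represses the pathway, with 54 and 165 counts (1.26, 0.82 to 1.74). The co-receptor Gas1 was just short of the call in the knee, with 2028 and 4990 counts (0.96), and was called lower in the hip, with 2566 and 994 counts (-1.17, -1.28 to -1.06). Gpr161 was called higher in the hip too, from 16 and 55 counts. The hip median of this list was -0.37.

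Of the 13 intracellular transducers, none was called in the knee, where 6.81% of all genes were called lower and 9.00% higher, and the median was 0.21. In the hip 5 were called higher and 1 lower, where 20.2% and 16.3% of all genes were, with a median of 0.28. The kinase Csnk1a1 had 4841 and 8798 counts (log2 ratio 1.06), the ubiquitin ligase adaptor Spop 4257 and 9313 (1.33), the kinase Gsk3b 1254 and 2971 (1.44) and the ciliary motor Kif3a 138 and 260 (1.11). Ift88, a ciliary transport gene, was also called higher (1.17), and Gli3, the main repressor of the Gli family, was the gene called lower, with 140 and 57 counts (-1.09, -1.57 to -0.64). The last pair of genes fall outside the rule for naming and were named after their values were seen. Genes for Hedgehog ligands and their release had none called in either pair, with medians of -0.26 in the hip and 0.27 in the knee over the 4 with enough counts.

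Partners of PTHrP signaling (14 genes, 12 with enough counts) had a median of 0.09 in the hip and 0.44 in the knee. In the hip 1 was called higher and 1 lower, below the 20.2% and 16.3% of all genes. In the knee, where 9.00% of all genes were called higher, 2 were: Hdac5, a class IIa histone deacetylase, with 1238 and 3232 counts (log2 ratio 1.04), and Gnas, which encodes the G protein subunit that couples Pth1r to cAMP, with 555 and 3048 counts (2.12, 1.99 to 2.25). Gnas lies in a locus with overlapping sense and antisense transcripts, so its count is uncertain. In the hip it had 2701 and 1758 counts (-0.42). Also in the hip, the G protein gene Gnaq was called higher (1.07) and Nkx3-2, a repressor of chondrocyte maturation, was called lower from 38 and 7 counts (-2.16, -3.65 to -1.06).

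Among 16 other genes of hypertrophy and the osteoblast transition, the knee had 4 called lower and 2 higher (6.81% and 9.00% of all genes), with a median of -0.04. The genes called lower were Spp1, with 75953 and 35562 counts (log2 ratio -1.43, -1.45 to -1.42), the collagenase gene Mmp13, with 27871 and 10772 (-1.71, -1.74 to -1.68), and the transcription factors Foxa2, with 209 and 74 (-1.83), and Foxa3, with 84 and 18 (-2.53). Foxa2 and Foxa3 fall outside the rule for naming and were named after their values were seen. The genes called higher were Bmp6, with 218 and 913 counts (1.72), and Phospho1, a phosphatase of mineralization, with a log2 ratio of 1.48 from few counts (70 in the control). Runx2 was not called, with 1249 and 2238 counts (0.50). Bone cells also express Spp1 and Mmp13, and of 8 osteoclast genes 5 were called lower and none higher in the knee, with a median log2 ratio of -1.41, sums of 3440 and 1912 CPM and no gene at 0. The part of these cells in the ratios of Spp1 and Mmp13 was not tested.

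The hip had 4 of the 15 tested genes of that list called lower and 2 called higher, with a median of -0.33. Among all hip genes 16.3% were called lower and 20.2% higher, so the count of genes called higher was below that share and the count called lower not far above it. Alpl, the phosphatase of mineralizing cells, had 1919 and 517 counts (log2 ratio -1.69, -1.84 to -1.55), and Sp7, a transcription factor of osteoblasts and late hypertrophy, had 229 and 73 (-1.44). Runx3, with 141 and 38 counts (-1.68), and Foxa3, with 26 and 0 counts and so at least 7.56-fold lower at the floor of 3 counts, were also called lower and were named after their values were seen. Vegfa, with 3079 and 6562 counts (1.29), and Spp1, with 1005 and 1895 (1.11), were called higher. Spp1 was thus called in opposite directions in the 2 pairs, and Mmp13, at 377 and 411 counts in the hip (0.32), was called in the knee alone, a difference between joints that was not tested.

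**Figure D5:**
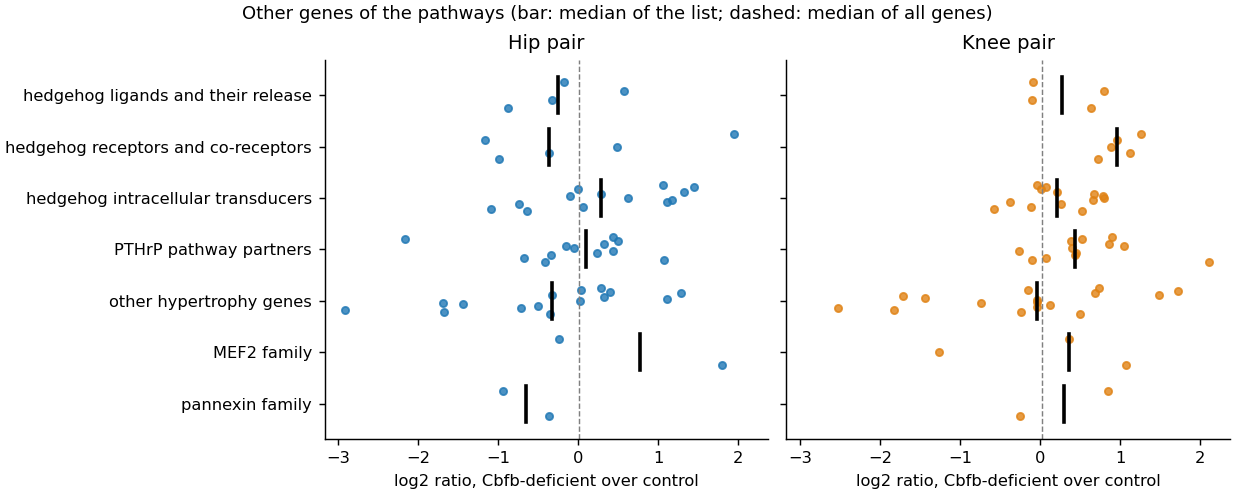
Log2 ratio, Cbfb-deficient over control, of the other genes of the pathways with at least 10 counts over the pair, in the hip (left, blue) and the knee (right, orange); each point is 1 gene, the black bar is the median of the list and the dashed line the median of all genes, and Foxa3 in the hip is drawn at its bound. The 5 Hedgehog receptors and co-receptors of the knee lie to the right of the dashed line, with a median of 0.96, and the hypertrophy genes spread to both sides.

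The genes whose pattern over the 4 libraries was most like that of a member were sought among 13830 others with at least 100 counts in 1 or more libraries, by the Euclidean distance between log2(CPM + 0.1) values centred on each gene's mean. Nearest to Col10a1 were Snorc, a proteoglycan gene of cartilage (distance 0.193), and Ly6d and Vpreb3, which are genes of early B cells (0.248 and 0.399). Snorc was counted 64 and 15 times in the hip pair and 5182 and 2041 times in the knee pair. Nearest to Gli1 were Clk3 (0.101), Tmem131 (0.165) and Wdr47 (0.182). With 4 libraries that differ in tissue makeup, many genes can share a pattern, and the distance is a description only.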

How the data were processed

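Poly-A RNA libraries were compared within the hip pair and within the knee pair, 1 library per group. The authors deposited counts of reads per Ensembl gene with no normalization. The hip files end with the summary lines of HTSeq, which held 25.8% and 24.6% of their reads and were left out, and the knee files come from another program. Alignment was by STAR (version 2.0, with FastQC 0.11.3 and build mm10, in the submitters' processing notes, and a later version with GRCm39 in the methods), and the annotation is not given in the sources used here. Identifiers were matched to GENCODE mouse symbols, GRCm39 (found for 91.8% in the hip files and 92.6% in the knee files). Of the listed genes, 2 had no match and are not analysed here.

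Counts were scaled within each pair with edgeR 4.0.16 (TMM) or, as an alternative, DESeq2 1.42.0 size factors, under R 4.3.3. Python 3.11.15 was used for the rest, with numpy 2.4.6, pandas 2.3.3, scipy 1.17.1 and matplotlib 3.10.9. A paired fit over the 4 libraries (joint as block, edgeR and DESeq2), after the paired DESeq2 analysis that the methods name, was added after seeing the data, on genes with at least 10 counts in each pair. The trend over length and GC content was removed as the median log2 ratio of 20 bins of each, in 2 rounds. The steps were tested on simulated counts. Besides the 10 members and Cbfb, genes were named where called, at most 4 per list and pair by their counts, with the 3 genes most like Col10a1 and Gli1. Genes of the lists that were not called, such as Runx2, Mef2d, Panx1, Panx2, Shh and Dhh, were named outside this rule. So were single marker genes and the genes that share exons with members. Members, lists and alternatives were chosen with earlier results of these data known.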

Additional observations from a re-analysis of the deposited data

Results flagged for a closer look

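Smo was lower in the hip Cbfb-deficient library (log2 ratio -1.02) and higher in that of the knee (0.58), each beyond its counting interval. Pthlh did the same, with -0.62 in the hip and 0.34 in the knee, although the hip interval held 0 after the trend over length and GC content had been taken out. Ptch1 had 0.85 in the hip (0.24 after that correction) and -0.12 in the knee, where the interval held 0 under library size and under DESeq2 size factors. These 3 genes were brought up because the 2 pairs moved in opposite directions. The difference between joints was not tested, since there was 1 library per group, and the joint cannot be told apart from what else differed between the pairs.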

How the results depend on the processing

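The 4 counts of genes called, 3 lower and 1 higher in the hip and 4 lower and 1 higher in the knee, were recomputed under 9 settings. A limit of 4-fold left 0 lower and 0 higher in the hip (8.52% and 7.33% of all genes), and 1 lower (Panx3) and 0 higher in the knee (2.67% and 2.82%). A limit of 1.5-fold gave 4 lower and 4 higher in the hip (23.5% and 28.1% of all genes) and 4 lower and 2 higher in the knee (13.7% and 16.4%). Scaling to the summed chondrocyte marker counts, which moved the median of all genes by 1.24 in the hip and 1.21 in the knee, gave 0 lower and 5 higher in the hip, and 0 lower and 6 higher in the knee, where 57.0% and 61.5% of all genes were called higher, so that these counts are near the background. Under it Smo in the hip became 0.22 and Pth1r in the knee 0.20. In the hip the larger part of that sum came from Comp and Chad, which tendon also expresses. With the length and GC trend removed, 0 were called higher in the knee (9.44% of all genes) and 1 in the hip (14.0%), which was Gli1 in place of Mef2c. The cause of these shifts was not tested. Library size shifted the median of all genes in the knee by 0.18, and 71.3% of the calls were then higher, against 56.9%. Of the 20 log2 ratios, 20 stayed on the same side of their counting interval with an added count of 5, 19 with library size, 19 with DESeq2 size factors, 18 without the trend and 14 on the chondrocyte scale. The length of the longest transcript in place of the exon union moved 12 of the 20 levels per kilobase in the controls beyond counting error. A paired analysis over the 4 libraries, with joint as the block and 1 residual degree of freedom, was added after seeing the data and treats the 2 joints, with their other differences, as replicates. Over 17594 genes edgeR's quasi-likelihood test called 0 at an adjusted p under 0.05 (420 lower and 624 higher at an unadjusted p under 0.05), and DESeq2 called 22 lower and 24 higher, none of them among the 10 genes. The lowest adjusted p among the 10 was that of Col10a1, 0.68 in edgeR (log2 ratio -1.67) and 0.093 in DESeq2 (-1.66). Counts of Ihh and Panx3 in the hip, at most 12, limit what their ratios can show, although the hip control had the most counts on genes of the 4 libraries.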
